A study of Mus musculus with 26 samples.

Results

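The imprinted growth genes H19, Meg3, Cdkn1c, Grb10, Ndn, Plagl1, Peg3, Mest and Dlk1 were followed in mouse knee joints after destabilization of the medial meniscus (DMM), a surgery that leads to osteoarthritis. The 9 genes were chosen by symbol, and a probe set was counted when the array annotation gave it one of these symbols alone. In all, 34 of the 45101 probe sets on the array met this rule, and they covered 8 of the 9 genes, out of 18194 genes with a probe set of their own. H19 shared its only probe set with the microRNA gene Mir675, so no value is given for it. Each gene was read from its brightest probe set, the one with the highest mean log2 signal over all 26 arrays. For 7 genes that mean lay above 7.93, the median probe set of the array, and these were tested. The brightest Dlk1 probe set averaged 7.25 and was fitted only together with all dim probe sets.

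Each array carried RNA pooled from 3 male C57BL/6 mice, and the pool is the unit of replication. DMM joints were taken 2 weeks after surgery in 2 pools and at 4, 8 and 16 weeks in 3 pools each. Sham operated joints were taken at the same 4 times, and unoperated joints at time 0, in 3 pools each. Surgery was done at 12 weeks of age, the age of the time 0 mice, and the mice of the last groups were 28 weeks old, so that time after surgery and age cannot be told apart in a comparison with time 0. The 2-week DMM group lacks replicate 1, whose RNA was not intact enough for an array. The tissue was a block of the medial compartment with cartilage, subchondral bone, meniscus, synovium, joint capsule and ligament, and in such a block fewer cells of a type and less RNA per cell cannot be told apart.

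Imprinted genes are transcribed from only the maternal or only the paternal copy, according to marks set in the parental germ cells. Many belong to a network that regulates growth before and shortly after birth, and their expression in most mouse tissues declines as body growth slows. Genes expressed from the paternal copy often promote growth and those from the maternal copy often restrain it, which holds for the genes here except Ndn, a growth suppressor in cultured cells that is expressed from the paternal copy. Growth-restraining genes were therefore H19, Meg3, Cdkn1c and Grb10 (maternal copy) and Ndn (paternal copy), and growth-promoting genes were Plagl1, Peg3, Mest and Dlk1 (paternal copy). The promoting genes were assigned by the phenotype of mice but Ndn by its role in cultured cells, so the roles rest on unlike criteria.

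The deposited log2 signals had array medians between 7.90 and 7.95. Replicate pools correlated least in sham joints at 2 weeks (r between 0.95 and 0.98 over all probe sets), where the mean log2 signal of 12 skeletal muscle genes ranged over the 3 pools between 9.60 and 13.33. The sham 2-week pool with the highest muscle signal, replicate 1, also had the lowest signal of its group for all 8 measured genes. For the imprinted growth genes, the differences between DMM and sham joints at 2 weeks are given with and without that pool. Those of Rian and of the other genes named below include it. Defining genes of cartilage, bone, tendon, fat, macrophages, endothelium and red cells passed the brightness filter, while none of 7 genes of myogenic precursors passed the brightness filter.

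**Figure D1:**
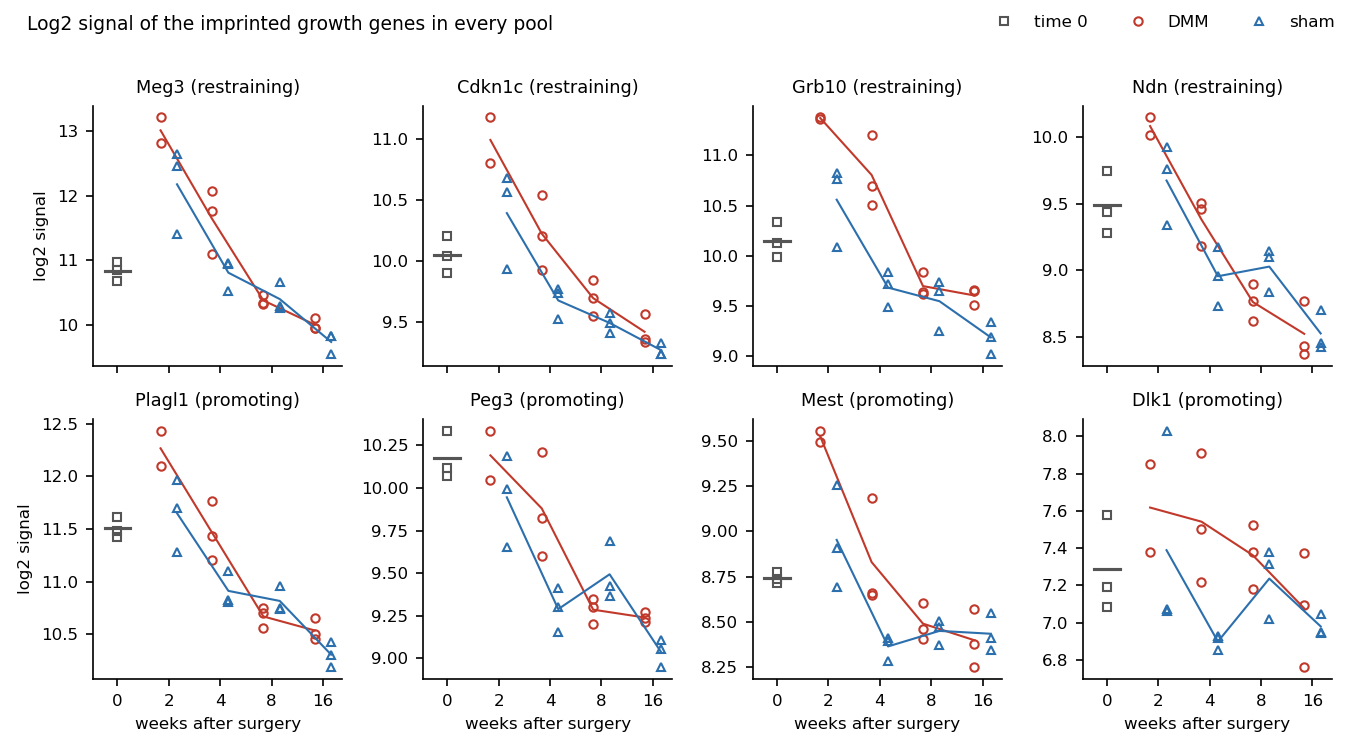
Log2 signal (y axis) of the brightest probe set of each gene in every pool against weeks from surgery, with time 0 first (x axis, evenly spaced). Circles are DMM pools, triangles sham pools and squares time 0 pools, and lines join group means. Meg3 had the widest range of group means, with 13.01 in DMM joints at 2 weeks and 9.74 in sham joints at 16 weeks, and the DMM pools lay above the sham pools at 4 weeks in all 8 panels.

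Among the growth-restraining genes, Meg3 is a long noncoding RNA made from the maternal copy of an imprinted cluster on chromosome 12, in which Dlk1 is expressed from the paternal copy. Its log2 signal at 2 weeks was 12.81 and 13.21 in DMM pools and 11.42, 12.65 and 12.46 in sham pools, against 10.97, 10.68 and 10.85 in time 0 pools. At 4 weeks it was 11.11, 11.76 and 12.07 in DMM pools and 10.96, 10.53 and 10.95 in sham pools. Every operated pool at 2 weeks was above every time 0 pool, and every DMM pool was above every sham pool at both times. Meg3 rose by 1.34 ± 0.24 (log2 difference ± SE) in sham joints at 2 weeks relative to time 0 (limma, adjusted p = 0.0135) and by 2.17 ± 0.27 in DMM joints at 2 weeks relative to time 0 (limma, adjusted p = 1.97e-05), the largest difference of any of the 7 tested genes from time 0. Without sham replicate 1 the Meg3 rise in sham joints was 1.72, and the call was lost without time 0 replicate 2 or 3 or sham replicate 2 or 3 (adjusted p between 0.0589 and 0.144). DMM minus sham was 0.83 ± 0.27 at 2 weeks (limma, adjusted p = 0.0978) and 0.45 without sham replicate 1 (limma, adjusted p = 0.458), and at 4 weeks Meg3 rose by 0.84 ± 0.24 in DMM relative to sham joints (limma, adjusted p = 0.0216). The Meg3 call at 4 weeks was lost without sham replicate 2 or DMM replicate 2 or 3 (adjusted p between 0.0847 and 0.127).

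The later Meg3 signals ran below time 0. At 8 weeks they lay between 10.34 and 10.47 in DMM pools and between 10.26 and 10.66 in sham pools, and at 16 weeks between 9.96 and 10.11 in DMM pools and between 9.56 and 9.84 in sham pools. In sham joints at 16 weeks Meg3 fell by 1.09 relative to time 0 (SE 0.24, limma, adjusted p = 0.01), a call that was lost without time 0 replicate 1 (adjusted p = 0.0559) or sham replicate 1 (adjusted p = 0.0673). In DMM joints at 16 weeks the difference from time 0 was -0.83 ± 0.24 (limma, adjusted p = 0.102). From 2 to 16 weeks Meg3 fell by 3.00 in DMM joints and fell by 2.43 in sham joints (limma, adjusted p = 2.04e-06 and 5.61e-06).

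Of the 8 measured genes Meg3 had the most probe sets, 11, of which 8 passed the filter, and they did not move alike. In sham joints at 2 weeks 7 of the 8 rose relative to time 0, by 0.34 to 1.34, against 1.25% of all probe sets. In DMM against sham joints at 2 weeks 5 of the 8 rose, though the brightest had no call, against 1.62% of all probe sets. The 8 differences ranged between 0.07 and 1.00, and they include sham replicate 1. In DMM against sham joints at 4 weeks 4 of the 8 rose, against 12.4% of all probe sets, and the differences ranged between -0.28 and 0.99. In sham joints at 16 weeks against time 0, 3 of the 8 fell, beside 4.47% of all probe sets. One and the same probe set was the lowest of the 8 in sham joints at 2 weeks, with -0.03, and in DMM against sham joints at 4 weeks, with -0.28, and it differed by 0.13 in sham joints at 16 weeks, with no call.

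**Figure D2:**
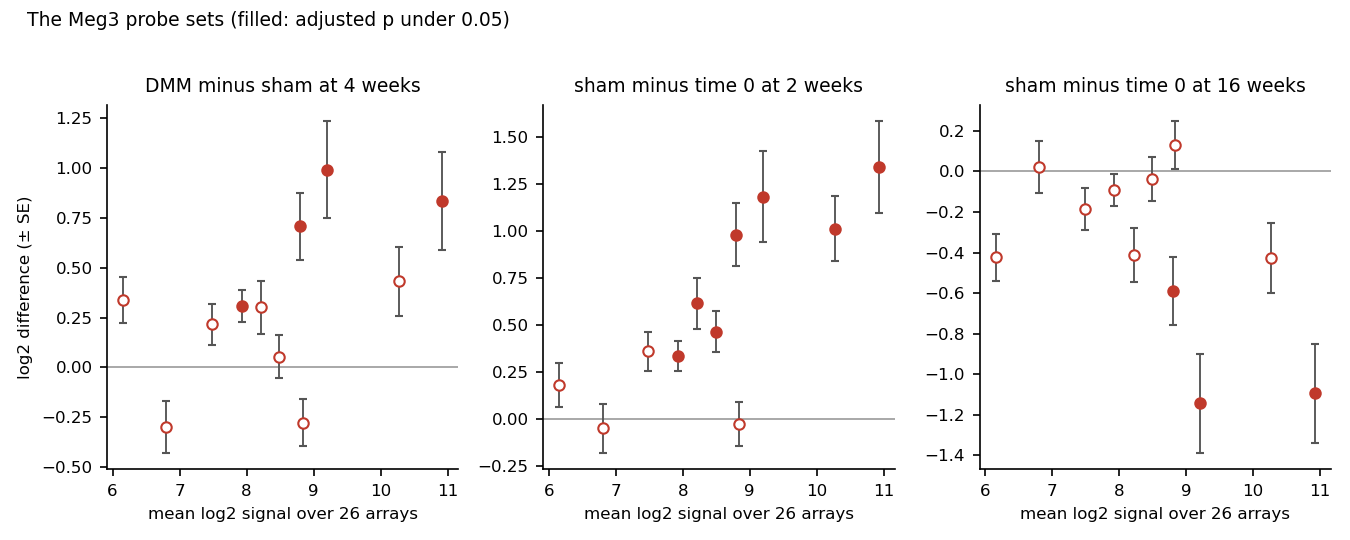
Log2 difference ± SE (y axis) of the 11 Meg3 probe sets against their mean log2 signal over 26 arrays (x axis), for DMM minus sham at 4 weeks, sham minus time 0 at 2 weeks and sham minus time 0 at 16 weeks. Filled points have an adjusted p under 0.05. The brightest probe set differed by 0.84, 1.34 and -1.09 in the 3 comparisons, and the third brightest by 0.99, 1.18 and -1.14, while others lay close to 0.

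Rian, another noncoding RNA made from the maternal copy of the chromosome 12 cluster, ran close to Meg3. At 4 weeks the log2 signal of Rian was 8.41, 9.05 and 9.33 in DMM pools and 7.95, 7.64 and 8.04 in sham pools, with no overlap. At 2 weeks it was 10.26 and 10.57 in DMM pools and 8.43 (replicate 1), 9.79 and 9.63 in sham pools. Rian rose by 1.05 ± 0.26 at 4 weeks and by 1.13 ± 0.29 at 2 weeks in DMM relative to sham joints (limma, adjusted p = 0.0081 and 0.0414). It was the gene second most like Meg3 over the 26 arrays (r = 0.981), after Nid1, a basement membrane gene (r = 0.982). Such correlations describe shared pools and are no test.

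Cdkn1c encodes the cyclin-dependent kinase inhibitor p57, which holds cells, growth plate chondrocytes among them, out of the cell cycle. At 2 weeks its log2 signal was 10.81 and 11.18 in DMM pools and 9.93, 10.68 and 10.56 in sham pools, against 10.21, 10.04 and 9.90 in time 0 pools. At 4 weeks it was 9.92, 10.21 and 10.54 in DMM pools and 9.74, 9.52 and 9.77 in sham pools. The DMM pools lay above the sham pools at both times, while the sham pools at 2 weeks overlapped those of time 0. Cdkn1c rose by 0.55 ± 0.16 in DMM relative to sham joints at 4 weeks (limma, adjusted p = 0.0233), and this call was lost without sham replicate 2 or DMM replicate 2 or 3 (adjusted p between 0.0671 and 0.141). At 2 weeks the difference was 0.60 ± 0.18 (limma, adjusted p = 0.0758), and 0.37 without sham replicate 1 (limma, adjusted p = 0.377). It rose by 0.94 ± 0.18 in DMM joints at 2 weeks relative to time 0 and fell by 0.78 in sham joints at 16 weeks (SE 0.16; limma, adjusted p = 0.00066 and 0.00609). The 3 sham pools at 16 weeks lay between 9.24 and 9.33.

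Grb10 encodes an adaptor protein that binds the insulin and IGF1 receptors and dampens their signalling, and it restrains fetal growth in mice. Its log2 signal at 2 weeks was 11.38 and 11.36 in DMM pools and 10.09, 10.77 and 10.82 in sham pools. At 4 weeks it was 10.51, 10.70 and 11.21 in DMM pools and 9.72, 9.50 and 9.84 in sham pools, against 10.34, 9.99 and 10.13 in time 0 pools. The DMM pools at 4 weeks were above all time 0 pools and the sham pools were below them. Grb10 rose by 1.12 ± 0.18 in DMM relative to sham joints at 4 weeks, a 2.17-fold difference and the largest of the 7 tested genes (limma, adjusted p = 0.000836). It kept this call under the 8 alternative settings run and without any single pool (adjusted p at most 0.0229). At 2 weeks the rise was 0.81 ± 0.20 (limma, adjusted p = 0.0382). The Grb10 call at 2 weeks was lost without sham replicate 1, where the difference was 0.58 (limma, adjusted p = 0.210), and without either DMM pool (limma, adjusted p = 0.151 and 0.163). A single Grb10 probe set lay above the filter. The other Grb10 probe sets averaged 7.80 and 7.23, and their differences are not given.

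Grb10 was also the restraining gene with the largest difference at 16 weeks between operations. Its log2 signal was 9.66, 9.65 and 9.51 in DMM pools and 9.02, 9.35 and 9.20 in sham pools. The pools did not overlap, but the difference of 0.42 (95% interval 0.04 to 0.79) did not pass the test (limma, adjusted p = 0.629). Relative to time 0, Grb10 rose by 1.22 ± 0.20 and by 0.65 ± 0.18 in DMM joints at 2 and 4 weeks (limma, adjusted p = 0.000176 and 0.0271) and fell by 0.96 in sham joints at 16 weeks (SE 0.18; limma, adjusted p = 0.00259). The rise at 4 weeks was lost without time 0 replicate 2 or 3 or DMM replicate 2 or 3, where Grb10 differed from time 0 by 0.45 to 0.71.

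Ndn encodes necdin, which binds E2F and p53 and holds back the division of cultured cells. The Ndn log2 signal at 4 weeks was 9.18, 9.51 and 9.46 in DMM pools and 8.96, 8.73 and 9.18 in sham pools, against 9.74, 9.28 and 9.44 in time 0 pools. The lowest DMM pool lay just above the highest sham pool, and DMM joints overlapped those of time 0. The difference between DMM and sham was 0.43 ± 0.15 at 4 weeks and 0.41 ± 0.17 at 2 weeks (limma, adjusted p = 0.058 and 0.204), so that Ndn was the only one of the 7 tested genes that did not pass the test at 4 weeks. None of the 5 Ndn probe sets above the filter was called at either time. Their differences ranged from 0.08 to 0.43 at 4 weeks, the brightest being the highest, and from 0.26 to 0.41 at 2 weeks. Without sham replicate 1 the Ndn difference at 2 weeks was 0.24. Against time 0 it rose by 0.59 ± 0.17 in DMM joints at 2 weeks (limma, adjusted p = 0.0133), a call lost without time 0 replicate 2 or DMM replicate 3. It fell by 0.96 both in DMM and in sham joints at 16 weeks (limma, adjusted p = 0.00141 and 0.000716). The log2 signals at 16 weeks were 8.43, 8.77 and 8.37 in DMM pools and 8.45, 8.70 and 8.43 in sham pools, nearly the same set of values.

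Among the growth-promoting genes, Plagl1 encodes a zinc finger transcription factor that binds many genes of the imprinted network, and mice without it are small at birth. Its log2 signal at 2 weeks was 12.10 and 12.44 in DMM pools and 11.28, 11.97 and 11.70 in sham pools. At 4 weeks it was 11.43, 11.20 and 11.77 in DMM pools and 11.10, 10.81 and 10.83 in sham pools, against 11.62, 11.42 and 11.48 in time 0 pools. The DMM pools were the higher ones at both times, and at 4 weeks the sham pools were all below time 0. Plagl1 rose by 0.56 ± 0.15 in DMM relative to sham joints at 4 weeks (limma, adjusted p = 0.0133), which was lost without sham replicate 2 or DMM replicate 3 (adjusted p = 0.0723 and 0.0929). The difference of 0.62 ± 0.17 at 2 weeks fell just short of the threshold (limma, adjusted p = 0.0508), and without sham replicate 1 it was 0.43 (limma, adjusted p = 0.276). Plagl1 had the largest fall of the 7 tested genes in sham joints at 16 weeks relative to time 0, by 1.20 (SE 0.15; limma, adjusted p = 4.75e-05), with pools of 10.43, 10.19 and 10.30. All these values rest on the only Plagl1 probe set above the filter. The other Plagl1 probe sets averaged 7.73 and 6.95, and their differences are not given.

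Peg3 encodes a zinc finger protein of the paternal copy, and mouse pups that lack it grow slowly. Of the 7 tested genes it lay closest to time 0 in DMM joints at 2 weeks. Its log2 signal then was 10.05 and 10.34 in DMM pools and 9.66, 10.00 and 10.19 in sham pools, against 10.34, 10.07 and 10.12 in time 0 pools, and the 3 groups overlapped. DMM differed from time 0 by 0.02 (95% interval -0.30 to 0.33) and sham by -0.23 (95% interval -0.52 to 0.05). DMM minus sham was 0.25 for Peg3, and 0.10 without sham replicate 1. At 4 weeks Peg3 was 9.60, 9.82 and 10.21 in DMM pools and 9.30, 9.16 and 9.41 in sham pools. The sham pools were then below all DMM and all time 0 pools. Peg3 rose by 0.59 ± 0.14 in DMM relative to sham joints at 4 weeks (limma, adjusted p = 0.00612), a call kept without any single pool but not in a fit of the compared groups alone (adjusted p = 0.0517). It fell by 0.89 in sham joints at 4 weeks relative to time 0 (SE 0.14; limma, adjusted p = 0.00715), although not without time 0 replicate 1 or sham replicate 2 (adjusted p = 0.0732 and 0.0529), and by 1.14 in sham joints at 16 weeks (limma, adjusted p = 3.83e-05).

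The promoter windows of Meg3 and Peg3 are shown because these 2 genes had the highest and the lowest difference from time 0 in sham joints at 2 weeks, and because both hold the same 8 letters. RefSeq (GRCm38.p6) gave 11 windows, each with 250 bases before and 50 after a start site, for 7 of the 9 genes. The palindrome TGACGTCA, the cAMP response element, occurs once in each of the windows below and in no other window of the 7 genes, against 1.79% of all 32851 windows. The Peg3 window also holds GGGGCCCC, a motif bound by Plagl1, found in 1.08% of all windows, and the Meg3 window holds TATAAA, overlapping on both strands and found in 13.6% of all windows. The match to TGACGTCA lies 49 bases before the start in Meg3 and 170 before it in Peg3. A YY1 motif, GCCATNTT, had no match in the 11 windows, against 6.05% of all windows. Both strands were read, the motifs were picked after the sequences had been seen, and a match of letters is no sign of binding. Capitals mark the matches.
Meg3, chr12:109540746-109541045, plus strand: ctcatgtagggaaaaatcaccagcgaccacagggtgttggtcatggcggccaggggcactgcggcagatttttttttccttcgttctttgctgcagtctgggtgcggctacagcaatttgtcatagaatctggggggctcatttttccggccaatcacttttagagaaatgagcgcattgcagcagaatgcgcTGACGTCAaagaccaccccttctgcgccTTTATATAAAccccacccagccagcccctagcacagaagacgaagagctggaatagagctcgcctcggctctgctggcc
Peg3, chr7:6730370-6730669, minus strand: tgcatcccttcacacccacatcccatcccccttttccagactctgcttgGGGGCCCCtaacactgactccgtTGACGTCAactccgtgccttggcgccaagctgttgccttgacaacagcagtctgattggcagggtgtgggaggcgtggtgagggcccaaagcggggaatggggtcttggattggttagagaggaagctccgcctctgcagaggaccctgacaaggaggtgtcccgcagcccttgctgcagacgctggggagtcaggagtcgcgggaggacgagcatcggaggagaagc

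Mest encodes a hydrolase-like protein of mesoderm, and its loss from the paternal copy retards fetal growth in mice. Its log2 signal at 2 weeks was 9.56 and 9.49 in DMM pools and 8.69, 9.26 and 8.91 in sham pools. At 4 weeks it was 8.65, 8.66 and 9.18 in DMM pools and 8.41, 8.39 and 8.28 in sham pools, against 8.74, 8.71 and 8.77 in time 0 pools. The DMM pools were above the sham pools at both times. Mest rose by 0.57 ± 0.14 in DMM relative to sham joints at 2 weeks (limma, adjusted p = 0.041) and by 0.47 ± 0.13 at 4 weeks (limma, adjusted p = 0.0159). The Mest call at 2 weeks was lost without sham replicate 1 (a difference of 0.44; limma, adjusted p = 0.231) or either DMM pool, and that at 4 weeks without sham replicate 2 or 3 or DMM replicate 3 (adjusted p between 0.0517 and 0.118). At 16 weeks in sham joints Mest was the one tested gene with no call against time 0, with a difference of -0.31 ± 0.13 (limma, adjusted p = 0.172).

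Dlk1, a Notch-like membrane protein that holds back fat cell formation, was dim and variable. Its log2 signal at 4 weeks was 7.22, 7.91 and 7.50 in DMM pools and 6.93, 6.92 and 6.85 in sham pools, which did not overlap. The difference of 0.64 ± 0.22 had an adjusted p of 0.0556 in the limma fit over all probe sets. At 2 weeks the 3 sham pools alone spanned 7.06 to 8.03. Dlk1 passed the test in none of the 16 comparisons made.

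**Figure D3:**
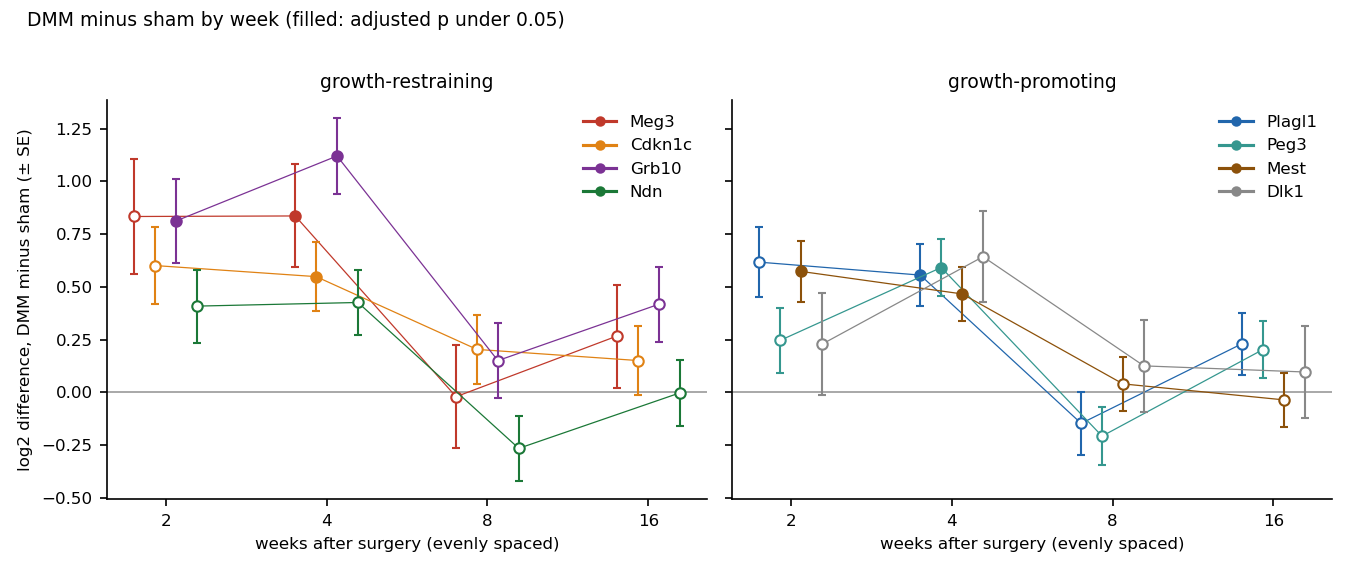
Log2 difference between DMM and sham joints ± SE (y axis) by weeks from surgery (x axis, evenly spaced), for the growth-restraining genes (left) and the growth-promoting genes (right). Filled points have an adjusted p under 0.05. Differences at 4 weeks lay between 0.43 for Ndn and 1.12 for Grb10, and at 8 weeks between -0.27 for Ndn and 0.20 for Cdkn1c.

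Set out by comparison, DMM joints differed from sham joints in the most genes at 4 weeks, and growth-restraining and growth-promoting genes went the same way. At 4 weeks 6 of the 7 tested genes rose (Grb10, Peg3, Plagl1, Mest, Meg3 and Cdkn1c), as did 12.4% of all 22550 probe sets tested. For all 7 every DMM pool lay above every sham pool, as for 19.3% of all probe sets. The median difference was 0.56 over the 7 genes and -0.01 over all probe sets. The count was 2 without sham replicate 2 or without DMM replicate 3, 4 without DMM replicate 2, and 1 in a fit of the compared groups alone. At 2 weeks 2 of the 7 rose (Grb10 and Mest), as did 1.62% of all probe sets, and the pools did not overlap for 6 of the 7 (all but Peg3), against 13.1% of all probe sets. The differences of all 7 were above 0, with a median of 0.60 against -0.02 over all probe sets, but no call was left without sham replicate 1 or without either DMM pool, and there were 5 calls without sham replicate 2 or 3.

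No gene was called at 8 or 16 weeks. At 8 weeks the 7 differences lay between -0.27 and 0.20, the limma unadjusted p was under 0.05 for 0 of them, and 0.00443% of all probe sets were called. At 16 weeks Grb10 alone had an unadjusted p under 0.05, against 7.4% of all probe sets, and 0.0621% were called. For 5 of the 7 genes (Meg3, Cdkn1c, Grb10, Peg3 and Plagl1) the DMM pools lay wholly above the sham pools at 16 weeks, as for 10.8% of all probe sets, with differences of 0.15 to 0.42. On average over the 4 times DMM exceeded sham for 6 of the 7 genes, all but Ndn, against 11.0% of all probe sets called higher. Grb10 was 0.62 ± 0.09 and Meg3 0.48 ± 0.13 higher (limma, adjusted p = 0.000126 and 0.012). Peg3, with 0.21 ± 0.07 (limma, adjusted p = 0.0472), lost that call without any one of 18 of the 23 operated pools, and the count was then 5. It kept it without sham 2-week, 4-week or 8-week replicate 3, DMM 2-week replicate 2 or DMM 4-week replicate 1.

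The DMM effect was larger at 4 than at 8 weeks for all 7 genes, by 0.34 to 0.97, and the change passed the test for Peg3 alone, against 1.39% of all probe sets called in that direction. DMM minus sham was 0.59 at 4 weeks and -0.21 at 8 weeks for Peg3, a change of 0.80 ± 0.19 (limma, adjusted p = 0.0465). With single pools left out the change was between 0.63 and 0.94, and Peg3 was called only without sham 4-week replicate 3, sham 8-week replicate 1 or DMM 4-week replicate 1.

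Relative to time 0, the genes were high early and low late. The sham pools enter these comparisons as well as those of DMM with sham, and all of them share the 3 time 0 pools. At 2 weeks 6 of the 7 rose in DMM joints, all but Peg3, against 14.3% of all probe sets, and 1 of 7, Meg3, rose in sham joints, against 1.25%. The DMM count was 4 without DMM replicate 3. The sham count was 3 without sham replicate 1, and 0 without time 0 replicate 2 or 3 or sham replicate 2 or 3. At 4 weeks 2 of 7 rose in DMM joints (Meg3 and Grb10), against 6.40% of all probe sets, and 1 of 7 fell in sham joints (Peg3), against 0.616%. The sham differences of all 7 were below 0 at 4 weeks, with a median of -0.47 against 0.00 over all probe sets. The DMM count at 4 weeks was 1 without time 0 replicate 1 and 0 without time 0 replicate 2 or 3 or DMM replicate 2 or 3, and the sham count was 0 without time 0 replicate 1 or sham replicate 2.

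The later pools of the 7 tested genes lay wholly below time 0, as did those of 10.9% and 10.3% of all probe sets in DMM joints at 8 and 16 weeks and of 8.51% and 17.0% in sham joints. At 8 weeks 3 of 7 fell in DMM joints (Ndn, Peg3 and Plagl1) and 2 of 7 in sham joints (Peg3 and Plagl1), against 0.643% and 0.510% of all probe sets. The DMM count was 2 without any of time 0 replicates 1 and 3 and the 3 DMM pools, and the sham count was 0 without any of the 3 time 0 pools or sham replicates 1 and 2. At 16 weeks the same 3 genes fell in DMM joints, against 1.22% of all probe sets, and 6 of 7, all but Mest, fell in sham joints, against 4.47%. The median difference over the 7 genes at 16 weeks was -0.83 in DMM joints and -0.96 in sham joints, and 0.02 and 0.03 over all probe sets. All 7 fell from 2 to 16 weeks in DMM and in sham joints, against 18.4% and 15.3% of all probe sets called lower, and both counts held without any single pool.

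**Figure D4:**
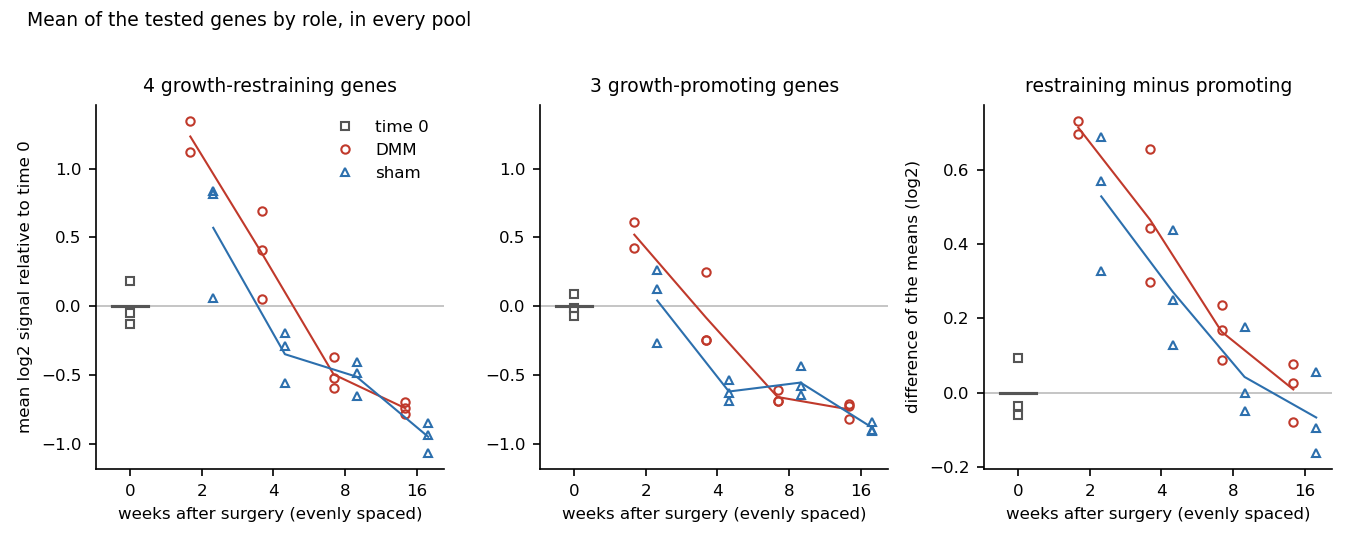
Mean log2 signal relative to time 0 (y axis) of the 4 tested growth-restraining genes (left), the 3 tested growth-promoting genes (middle) and the difference of the 2 means (right) in every pool at 0, 2, 4, 8 and 16 weeks (x axis, evenly spaced). Circles are DMM pools, triangles sham pools, squares time 0 pools, and lines join group means. The difference was 0.71 in DMM joints at 2 weeks and 0.01 at 16 weeks.

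The mean of the restraining genes lay above that of the promoting genes at the early times, and the 2 means ran together later. Gene by gene the roles did not separate in DMM joints. Relative to time 0 at 2 weeks, Ndn (0.59) lay below Plagl1 (0.76) and Mest (0.78), while Peg3 differed by 0.02. At 4 weeks Ndn (-0.11) again lay below Plagl1 (-0.04) and Mest (0.09). Meg3, Grb10 and Cdkn1c lay above all 3 promoting genes at both times. Relative to time 0, the 4 restraining genes averaged 1.12 and 1.34 in the DMM pools and between 0.06 and 0.83 in the sham pools at 2 weeks, while the 3 promoting genes averaged 0.43 and 0.61 in the DMM pools and between -0.27 and 0.26 in the sham pools. The restraining mean exceeded the promoting mean in all 11 operated pools at 2 and 4 weeks. The gap was 0.71 on average in DMM joints and 0.53 in sham joints at 2 weeks, 0.47 in DMM joints and 0.27 in sham joints at 4 weeks, and between -0.07 and 0.16 in the 4 later groups. The sham 2-week pools had gaps of 0.33 (replicate 1), 0.57 and 0.69. Without Meg3 the mean gap was 0.40 in DMM joints and 0.27 in sham joints at 2 weeks, and 0.32 in DMM joints and 0.16 in sham joints at 4 weeks. Split by parental copy, maternal genes exceeded paternal genes by 0.91 in DMM joints and by 0.62 in sham joints at 2 weeks. These averages describe genes of known roles and were not tested.

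Across the 26 arrays the 7 tested genes ran close together, with pairwise correlations between 0.78 and 0.96 (21 pairs, median 0.91), and between 0.34 and 0.89 within groups. The points share pools and the same course over time. Meg3 and Cdkn1c were the pair with the highest value. By likeness to single genes, Cdkn1c stood nearest to Rian (r = 0.970), Grb10 to Fkbp9 and Fkbp14, protein-folding genes of the endoplasmic reticulum (both 0.983), and Ndn and Plagl1 to Nid2, a basement membrane gene (0.954 and 0.950). Peg3 stood nearest to Car12 and the cartilage link protein gene Hapln1 (0.965 and 0.955), Mest to Capn6 (0.951), and Dlk1, less closely, to Selenok (0.860). In the order of group means, DMM joints at 2 weeks were highest for all 8 measured genes. Sham joints at 16 weeks were lowest for Meg3, Cdkn1c, Grb10, Peg3 and Plagl1. Most neighbours in these orders overlapped, with 4 of 8 steps apart for Meg3, 3 for Cdkn1c and Plagl1 and 1 for Peg3 and Dlk1.

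Of 32 other imprinted genes, 16 passed the filter. At 4 weeks 4 of the 16 rose in DMM relative to sham joints (limma), beside the 12.4% of all probe sets given above, and none fell. Besides Rian these were Igf2r, the receptor that clears IGF2, by 0.55 ± 0.18, Sgce, a sarcoglycan gene, by 0.45 ± 0.13, and Inpp5f, a phosphatase gene, by 0.22 ± 0.06 (limma, adjusted p = 0.0354, 0.0242 and 0.0165). At 2 weeks 2 of the 16, Rian and Igf2, a fetal growth factor, rose (1.62% of all probe sets did), Igf2 by 0.39 ± 0.08 (limma, adjusted p = 0.0262). At 8 and 16 weeks 0 of the 16 were called. The median difference of the 16 at 4 weeks was 0.01, close to the -0.01 of all probe sets. Of the 16, Rian and Sgce alone were called in sham joints at 16 weeks relative to time 0. They fell by 0.91 and 0.47 (limma, adjusted p = 0.0399 and 0.0431), beside 4.47% of all probe sets called lower.

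The partners of these genes were read in the same fits. Of 8 tested genes around the insulin and IGF receptors that Grb10 binds, 3 rose in DMM relative to sham joints at 4 weeks, read against the same 12.4%. They were the growth factor Igf1 by 1.84 ± 0.27, the adaptor Irs1 by 0.75 ± 0.14 and the binding protein Igfbp3 by 0.81 ± 0.20 (limma, adjusted p = 0.0005, 0.0020 and 0.0089), and Igf1 also rose at 2 weeks, by 1.13 ± 0.30 (limma, adjusted p = 0.0466). Of 14 tested cell cycle genes, 4 fell at 4 weeks, against 6.67% of all probe sets called lower. The 3 brightest of these were Mki67, which fell by 0.41, Top2a by 0.37 and Cdk1 by 0.47. Cdkn1a, the inhibitor p21, was named after its values were seen and rose by 0.74 ± 0.23 (limma, adjusted p between 0.0072 and 0.0291 for the named genes). Of 8 tested Notch pathway genes, the ligand Jag1 alone was called at 4 weeks, a share close to the 12.4% of all probe sets. Jag1 rose by 0.70 ± 0.16 (limma, adjusted p = 0.0054). Relative to time 0, Irs1, Igfbp3 and Grb14, a relative of Grb10, fell in sham joints at 16 weeks by 0.70, 0.82 and 0.79. In the same comparison the Notch pathway gene Hes1 fell by 0.32. Of the cell cycle genes Cdkn1a fell by 0.78 and Cdk6 rose by 0.25. Of all probe sets 4.47% were called lower there.

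Markers of several cell types moved with the same comparisons. The mean signals of a list, here and below, take every gene with a probe set of its own, also below the filter. They thus include Matn1 for cartilage and Mkx for fibroblasts and tendon, which were not tested. In DMM joints at 4 weeks 6 of 8 fibroblast and tendon genes were higher than in sham joints (mean log2 signal 11.65 to 12.11 in DMM pools and 10.77 to 11.21 in sham pools), as were 3 of 4 endothelial genes (9.43 to 9.68 in DMM pools and 9.13 to 9.30 in sham pools). Of 6 tested cartilage genes Acan alone was called, higher by 0.54 ± 0.19 (limma, adjusted p = 0.0492), but the list's median difference was 0.56 and its mean was higher in every DMM pool (11.27 to 11.90) than in the sham pools (10.76 to 11.23). Lower were 4 of 5 fat cell genes (9.63 to 9.94 in DMM pools and 10.35 to 10.43 in sham pools). Of the bone genes Ibsp alone was called, higher by 0.46 ± 0.15 (limma, adjusted p = 0.0408). No red cell gene was called, but their mean was lower in every DMM pool (12.71 to 13.42) than in the sham pools (13.47 to 13.82). Over all probe sets 12.4% were called higher and 6.67% lower. None of 12 skeletal muscle genes was called, although their mean was lower in the DMM pools (11.06 to 12.07) than in the sham pools (12.44 to 12.51). With the muscle mean as a covariate the same 6 imprinted genes rose at 4 weeks, by 0.44 (Cdkn1c and Mest) to 1.01 (Grb10), with limma adjusted p between 0.00128 (Grb10) and 0.0487 (Cdkn1c). The same covariate gave 5 calls between DMM and sham joints at 2 weeks, where there were 2 without it, and none in sham joints at 8 weeks against time 0, where there were 2 without it.

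At 2 weeks the fibroblast and tendon mean was also higher in the DMM pools (12.31 to 12.46) than in the sham pools (11.28 to 11.95), with 1 of 8 genes called, Tnmd, which rose by 1.70 ± 0.38 (limma, adjusted p = 0.0277). At 16 weeks, where no imprinted growth gene was called, it was 11.01 to 11.20 in DMM pools and 10.06 to 10.44 in sham pools, and 2 of 8 rose, the collagen gene Col3a1 by 1.31 ± 0.20 and the proteoglycan gene Lum by 1.35 ± 0.20 (limma, adjusted p = 0.0055 for both). Between DMM and sham joints, 1.62% of all probe sets were called higher at 2 weeks and 0.0621% were called at 16 weeks. In DMM joints at 2 weeks relative to time 0, all 8 fibroblast and tendon genes rose (12.31 to 12.46 in DMM pools and 10.81 to 11.15 in time 0 pools), against 14.3% of all probe sets.

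In sham joints at 16 weeks relative to time 0, all 6 tested cartilage genes fell (9.39 to 9.79 in sham pools and 11.88 to 12.09 in time 0 pools), as did all 5 bone genes (10.46 to 10.89 in sham pools and 11.49 to 11.74 in time 0 pools), 4 of 8 fibroblast and tendon genes (10.06 to 10.44 in sham pools and 10.81 to 11.15 in time 0 pools) and 4 of 5 fat cell genes. The endothelial genes Cdh5 and Tek also fell, by 0.44 and 0.39 (limma, adjusted p = 0.0297 and 0.0126). The macrophage gene Adgre1 went the other way and rose by 0.30 (limma, adjusted p = 0.0449). Of all probe sets 4.47% were called lower in this comparison. The part of these cell types in the imprinted gene results was not tested. The fit with the muscle mean cannot tell muscle from operation at 4 weeks, where that mean did not overlap between DMM and sham pools.

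The Gapdh 3 prime minus 5 prime log2 signal, a measure of RNA quality, also moved with the comparisons with time 0. It was 0.28 to 0.49 in DMM pools and 0.31 to 0.38 in sham pools at 2 weeks, 0.33 to 0.48 in DMM pools and 0.31 to 0.47 in sham pools at 4 weeks, 0.29 to 0.56 in DMM pools and 0.23 to 0.35 in sham pools at 8 weeks, and 0.24 to 0.34 in DMM pools and 0.31 to 0.48 in sham pools at 16 weeks, against 0.21 to 0.28 in time 0 pools. The sham pools at 2, 4 and 16 weeks and the DMM pools from 2 to 8 weeks thus lay wholly above those of time 0. With this value as a covariate the count against time 0 was 0 in DMM and in sham joints at 4 weeks, 1 of 7 (Plagl1) in DMM joints at 8 weeks, and as without it at the other times. DMM against sham joints had 0 calls at 2 weeks and 6 at 4 weeks.

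By the filtering steps of the study, 4 of the 8 measured genes (Cdkn1c, Ndn, Peg3 and Plagl1) passed in the sham time course, taken relative to time 0. In the DMM time course, taken relative to sham, 1 gene passed, Grb10. The detection step of the study was left out here. The share of all probe sets that pass the remaining steps is not given, so these counts have nothing to be read against. These steps ask for a signal log ratio of at least 0.5 at some time in each replicate course, and for courses that correlate and lie close together. Without replicate 1 fewer pairs of courses were left to compare, so the criterion was not the same, and the counts were 6 and 4. Meg3 met the ratio and correlation steps in the sham course, but only 1 of its 3 distances between replicate courses was small enough.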

How the data were processed

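The authors deposited log2 signals of 26 Affymetrix whole-genome mouse arrays, already normalized between arrays by systematic variation normalization, and these values were used as given. Gene symbols came from the platform annotation, in which 34958 probe sets had 1 symbol, 932 several and 9211 none. Differences were fitted with limma 3.58.1 (lmFit, eBayes) in R 4.3.3, with 1 mean for each of 9 groups, 17 residual degrees of freedom and Benjamini-Hochberg adjustment over the 22550 probe sets with a mean above 7.93, and an adjusted p under 0.05 was a call. Dlk1 was fitted over all 45101 probe sets. All 9 imprinted genes were named by rule, and from the other lists at most the 3 brightest called genes per comparison. Any further gene of a list was named after its values were seen. The imprinted genes and the lists were chosen with earlier results of these data known. The fits were tested on simulated data. Pools of 3 mice were the replicates, and the number of arrays limits the precision. The labels give replicate numbers, which the study paired at random into time courses. Same-numbered pools deviated together, in every pair of 3, only for DMM and sham at 8 weeks (r between 0.32 and 0.56) and for DMM at 16 weeks and time 0 (r between 0.12 and 0.44). The study's own filter was rerun without its detection step, for which no detection values were used here. Alternatives were no brightness filter, quantile normalization, array weights, the replicate number as a block, the muscle mean or the Gapdh 3 prime minus 5 prime signal as a covariate, the mean over a gene's probe sets, the compared groups alone, and each pool left out. Figures and promoter searches were made in Python 3.11.15 with matplotlib 3.10.9 and pandas 2.3.3.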

Additional observations from a re-analysis of the deposited data

Results flagged for a closer look

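The difference between DMM and sham joints was larger at 4 than at 8 weeks for Peg3, by 0.80 ± 0.19 on the log2 scale (limma interaction term, adjusted p = 0.0465). It was singled out because the effect of surgery differed between the 2 times by a test of the difference itself. The Peg3 pools were 9.60, 9.82 and 10.21 in DMM joints and 9.30, 9.16 and 9.41 in sham joints at 4 weeks, and 9.20, 9.30 and 9.35 in DMM joints and 9.36, 9.43 and 9.69 in sham joints at 8 weeks. The differences of the other 6 tested genes between these times were also above 0, from 0.34 to 0.97, without passing the test. The only other Peg3 probe set above the brightness filter differed by 0.97 ± 0.26 with no call (limma, adjusted p = 0.0559), and the mean over both by 0.88 (limma, adjusted p = 0.051).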

How the results depend on the processing

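Counts are of the 7 tested genes called in a limma fit. DMM against sham at 2 weeks, with 2 calls, had 0 with no brightness filter, array weights, the replicate block, the Gapdh covariate or the compared groups alone, 5 with the muscle covariate and 4 with the mean over probe sets, and 0 to 5 with single pools left out. DMM against sham at 4 weeks, with 6, had 1 with the compared groups alone and 2 to 7 with pools left out. Sham against time 0 at 2 weeks, with 1, had 0 with array weights or the compared groups alone and 0 to 3 with pools left out. At 4 weeks, with 1, it had 2 with quantile normalization or the replicate block, 4 with array weights, 0 with the Gapdh covariate, 3 with the compared groups alone and 0 to 1 with pools left out. At 8 weeks, with 2, it had 0 with no filter, the muscle covariate or the compared groups alone, 4 with array weights and 0 to 2 with pools left out. DMM against time 0 at 4 weeks, with 2, had 1 with no filter or the mean over probe sets, 4 with array weights, 0 with the Gapdh covariate or the compared groups alone and 0 to 2 with pools left out. At 8 weeks, with 3, it had 1 with the Gapdh covariate, and at 16 weeks, with 3, 7 with array weights and 6 with the compared groups alone. The change in the DMM effect between 4 and 8 weeks, with 1 call, had 0 with no filter, the Gapdh covariate, the mean over probe sets or the compared groups alone, 7 with array weights, 2 with the replicate block, 5 with the muscle covariate and 0 to 5 with pools left out. The study's filter passed 4 to 6 genes in the sham course and 1 to 4 in the DMM course with a replicate course left out. The cause was not tested in any of these, and limma's array weights stopped before they converged. No difference changed sign while called. The replicate numbers did not pair the pools in the other comparisons (r between -0.42 and 0.53), and the replicate block gave 4 calls for DMM against time 0 at 16 weeks and left the counts not named here as they were. The falls of all 7 genes between 2 and 16 weeks kept 7 calls without any single pool.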
